A study of Mus musculus with 8 samples.

Results

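The genes described here are 8 surface and secreted markers of Kupffer cells, the macrophages that reside in the sinusoids of the liver: Clec4f, Timd4, Vsig4, Marco, Cd5l, Folr2, C6 and Adgre1. All 8 lay above the median of all array rows (3.63) on average, with single values from 6.88 (C6) to 11.56 (Marco). So did 12315 of the 22180 genes tested, and 11 of 11 measured hepatocyte genes. Passing that mark therefore does not single out markers of Kupffer cells. Each member was taken from the array row that carried its symbol and no other, and each of the 8 had exactly 1 such row. The rule itself used no measured value apart from the choice of row, but the genes were proposed with earlier results of these arrays known. Hepatic macrophages from male FVB/N mice aged 8 weeks were profiled on 8 Affymetrix arrays. The 4 rTF arrays came from mice given 25 µg of recombinant transferrin, the plasma iron carrier. The 4 rCPS1 arrays came from mice given 50 µg of recombinant carbamoyl phosphate synthetase 1, a urea cycle enzyme of hepatocyte mitochondria. Acetaminophen, which injures the liver, followed 12 h later at 350 mg/kg by the intraperitoneal route, and both proteins had gone in by tail vein. Protein and amount therefore changed together, every mouse had received acetaminophen and a protein, and the comparison asks what rCPS1 changes against rTF. Every title reads Mouse1, so the labels do not assure separate animals, and the p-values below refer to a spread between arrays that could be technical. How the macrophages were isolated and how long after acetaminophen are not given in the sources used here.

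Kupffer cells are seeded before birth, renew themselves in the sinusoid and take up particles, microbes and dying cells from the blood that passes them. Their identity depends on signals from neighbouring endothelial cells, stellate cells and hepatocytes and on transcription factors that include PU.1, MAF family members, the Notch partner RBPJ and the nuclear receptor LXR alpha. In acetaminophen injury, monocytes enter the liver and form macrophages that at first lack most of these markers. On an array of bulk RNA, fewer Kupffer cells and less of a transcript in each cell cannot be told apart.

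The promoters of members whose levels followed each other across arrays are shown first. RefSeq promoter windows were matched for 7 of the 8 genes, 1 each except for Folr2 with 2, which gave 8 windows. Printed are the 250 bases upstream of the start for the 3 genes whose level followed the mean of the other 7 most closely (Cd5l, Clec4f and Timd4) and for the gene that followed it least (Marco), a choice made after the values were seen. They read 5′ to 3′ on the gene's strand in build GRCm38.p6. Capitals mark matches on either strand to GAGGAA (as PU.1 binds), TGCTGA (as MAF factors bind), TGGGAA (as RBPJ binds) or AGGTCA (as nuclear receptors bind). No matches overlapped in these 4 windows.
Cd5l, chr3:87357631-87357880, plus strand: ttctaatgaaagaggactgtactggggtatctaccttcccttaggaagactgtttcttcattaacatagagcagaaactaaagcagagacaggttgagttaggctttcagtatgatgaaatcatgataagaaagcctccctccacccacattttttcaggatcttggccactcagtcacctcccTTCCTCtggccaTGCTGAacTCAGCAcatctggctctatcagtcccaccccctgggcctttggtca
Clec4f, chr6:83656117-83656366, minus strand: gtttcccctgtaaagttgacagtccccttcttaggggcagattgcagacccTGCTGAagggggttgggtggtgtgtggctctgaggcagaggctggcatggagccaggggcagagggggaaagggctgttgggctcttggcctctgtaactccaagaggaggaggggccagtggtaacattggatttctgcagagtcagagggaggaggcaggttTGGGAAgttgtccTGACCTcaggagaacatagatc
Timd4, chr11:46810549-46810798, plus strand: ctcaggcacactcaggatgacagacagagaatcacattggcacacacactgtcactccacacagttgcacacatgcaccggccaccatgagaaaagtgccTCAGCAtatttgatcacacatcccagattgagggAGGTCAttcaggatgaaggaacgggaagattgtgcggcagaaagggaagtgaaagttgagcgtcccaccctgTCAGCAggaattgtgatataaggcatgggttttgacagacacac
Marco, chr1:120505025-120505274, minus strand: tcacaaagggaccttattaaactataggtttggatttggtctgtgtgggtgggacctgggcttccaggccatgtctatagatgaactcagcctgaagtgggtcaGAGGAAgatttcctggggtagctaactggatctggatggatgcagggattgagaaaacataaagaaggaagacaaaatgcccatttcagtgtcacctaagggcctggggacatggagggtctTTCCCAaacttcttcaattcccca

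Of the 8 member windows, TGCTGA or its reverse lay in 5 (Cd5l, Clec4f, Timd4 and both of Folr2), against 16.1% of all 32851 promoter windows of this length. Cd5l held it on both strands at 54 and 46 bases upstream of the start, and Timd4 held it at 150 and 44 bases upstream. GAGGAA lay in 3 member windows (Cd5l, Marco and Vsig4) against 23.3% of all windows. AGGTCA lay in 3 (C6, Clec4f and Timd4) against 14.0%, and TGGGAA in 2 (Clec4f and Marco) against 21.6%. These are matches of letters and not measured binding sites.

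The lectin and phagocytic receptors of the surface come first. Clec4f encodes a C-type lectin with affinity for galactose that in mice is found almost only on Kupffer cells. Its log2 level was 9.81, 9.37, 9.22 and 9.60 on rTF arrays 1 to 4 and 9.85, 9.11, 10.25 and 9.45 on rCPS1 arrays 1 to 4. The groups overlapped, and rCPS1 replicates 3 and 2 were the highest and the lowest of all 8 arrays. Clec4f averaged 9.50 ± 0.26 on rTF arrays and 9.66 ± 0.50 on rCPS1 arrays (SD, n = 4 each), which differ by 0.17 ± 0.24 (SE, limma adjusted p = 0.981). Timd4 encodes a receptor for phosphatidylserine on dying cells and marks macrophages of long residence. It read 9.44, 9.03, 9.06 and 9.38 with rTF and 9.51, 9.12, 9.62 and 9.12 with rCPS1. The same arrays were high as for Clec4f, with a narrower range of 0.58 over the 8 arrays. The Timd4 difference was 0.11 ± 0.16 (SE, limma adjusted p = 0.980).

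Vsig4 encodes a receptor for complement C3 fragments with which Kupffer cells hold blood-borne bacteria. Its log2 level was 9.63, 9.53, 9.14 and 9.59 with rTF and 10.12, 9.09, 10.24 and 9.41 with rCPS1. The rCPS1 arrays held the 2 highest values and the lowest, and their SD was 0.56 against 0.22 with rTF. The group difference was 0.24 ± 0.25 (SE, limma adjusted p = 0.980). Marco encodes a scavenger receptor with a collagen-like stalk that binds bacteria and particles. It read 10.97, 10.25, 10.70 and 10.93 with rTF and 11.23, 10.76, 11.56 and 10.93 with rCPS1. Here rTF replicate 2 was the lowest array and rCPS1 replicates 3 and 1 were the highest. Means were 10.71 ± 0.33 and 11.12 ± 0.35 (SD, n = 4 each), and the difference of 0.41 ± 0.21 (SE) was the largest of the 8. Its unadjusted limma p was 0.0775 and its adjusted p 0.980.

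**Figure D1:**
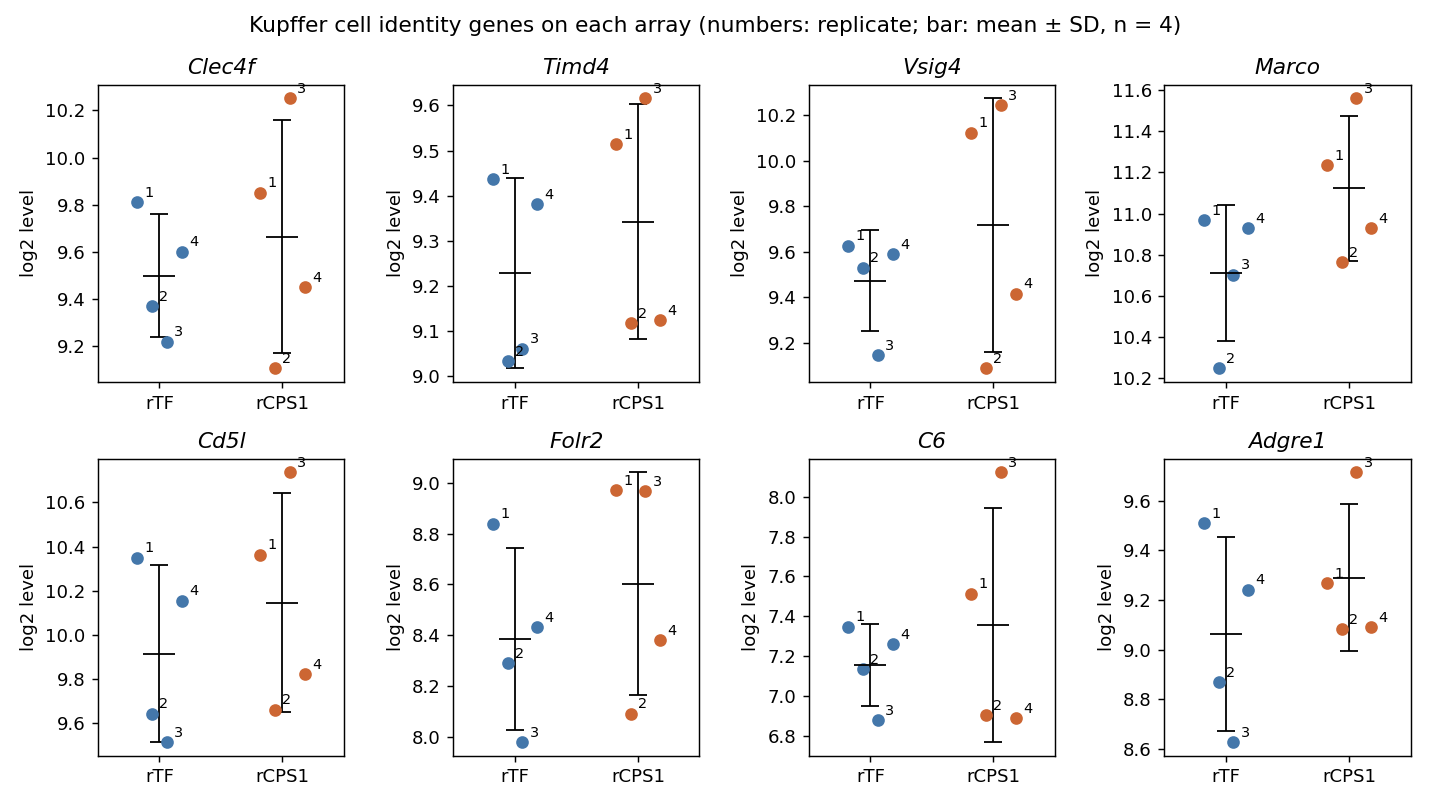
Log2 expression level of the 8 genes, 1 panel a gene with its own vertical axis, for 4 rTF arrays (blue) and 4 rCPS1 arrays (orange). Digits give the replicate and black bars the mean ± SD; the groups overlap in each panel, and rCPS1 replicate 3 is the highest array for 7 genes.

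Folr2, the folate receptor beta that is anchored to the membrane by a lipid, is found on resident macrophages of several tissues. It read 8.84, 8.29, 7.98 and 8.43 with rTF and 8.97, 8.09, 8.97 and 8.38 with rCPS1, so that rCPS1 replicates 1 and 3 were level at the top. Its difference was 0.22 ± 0.24 (SE, limma adjusted p = 0.980). Adgre1 encodes F4/80, an adhesion G protein-coupled receptor carried by most mouse macrophages and not by Kupffer cells alone. Its log2 level was 9.51, 8.87, 8.63 and 9.24 with rTF and 9.27, 9.08, 9.72 and 9.09 with rCPS1. For Adgre1 the second highest array was rTF replicate 1 and not an rCPS1 array. The difference was 0.23 ± 0.21 (SE, limma adjusted p = 0.980).

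The secreted products were also highest in rCPS1 replicate 3. Cd5l encodes a scavenger-receptor-type protein of macrophages that circulates bound to IgM. It read 10.35, 9.64, 9.51 and 10.15 with rTF and 10.36, 9.66, 10.74 and 9.82 with rCPS1. Replicate 1 of both groups stood at nearly the same level, and the difference was 0.23 ± 0.26 (SE, limma adjusted p = 0.980). C6 encodes a component of the complement membrane attack complex, which hepatocytes can make as well. It read 7.35, 7.13, 6.88 and 7.26 with rTF and 7.51, 6.90, 8.12 and 6.89 with rCPS1. With rCPS1, replicate 3 lay far above replicates 2 and 4, and the SD was 0.59 against 0.20 with rTF. The C6 difference was 0.20 ± 0.26 (SE, limma adjusted p = 0.980).

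Across the 8 members the mean was higher with rCPS1 for 8 and none passed the test. The log2 differences ran from 0.11 for Timd4 to 0.41 for Marco with a median of 0.22. Over all 22180 genes the median was -0.018 and 45.6% were higher with rCPS1. With limma, 0 of the 8 members and 0 of all genes (0%) had an adjusted p under 0.05. An unadjusted p under 0.05 was found for 0 members and for 1035 genes (4.67%), or 1.88% counting only genes higher with rCPS1. The groups did not overlap for 0 members, against 648 genes (2.92%). The 95% intervals of the fold (rCPS1 over rTF) bound what 4 arrays a group could miss. They ran from 0.85 to 1.38 for Timd4, from 0.78 to 1.61 for Clec4f and from 0.96 to 1.83 for Marco. Folds within these bounds were not resolved. Differences between groups took up 5.49% of the variance of Clec4f over the 8 arrays, 32.6% for Marco and values in between for the other 6 genes. Because the 8 genes followed each other across arrays, as described next, their common sign does not amount to 8 separate observations.

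**Figure D2:**
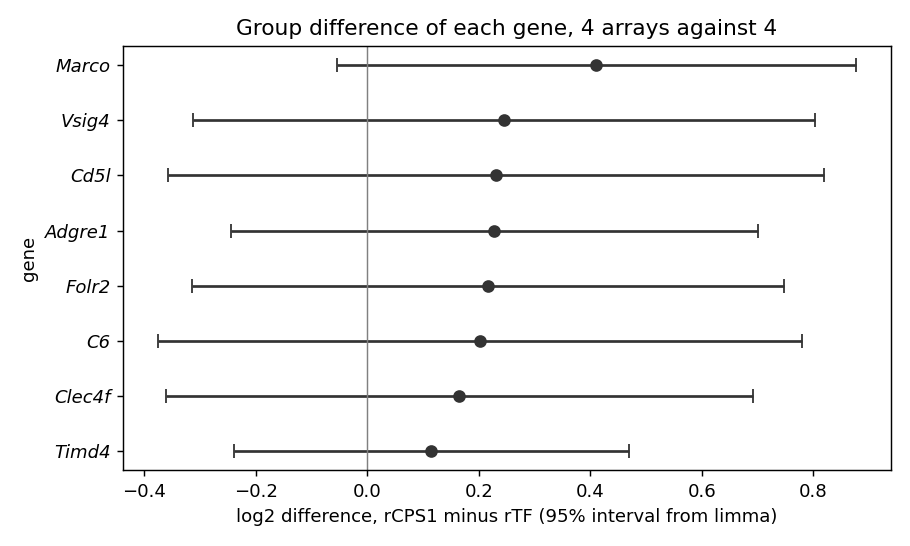
Log2 difference between the 4 rCPS1 and the 4 rTF arrays for each gene, ordered by size; points are the limma estimates and bars their 95% intervals. Estimates run from 0.11 (Timd4) to 0.41 (Marco), and each interval includes 0.

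The difference depended on single arrays, most on rCPS1 replicate 3. Without rCPS1 replicate 3, the highest array for 7 of the 8 genes, the median member difference was 0.052, and Clec4f (-0.030 ± 0.21, SE) and C6 (-0.054 ± 0.19, SE) turned to slightly lower with rCPS1. Marco was then at 0.26 ± 0.20 (SE). Leaving out rCPS1 replicate 2 instead gave the highest median, 0.37. With the mean of general macrophage genes in each array as a covariate the differences were larger, for example 0.46 ± 0.14 (SE) for Adgre1, 0.53 ± 0.17 for Cd5l and 0.60 for Marco. The limma adjusted p for these 8 genes under that covariate was no lower than 0.750. Without adjustment 4 of the 8 (Adgre1, Marco, Folr2 and Cd5l) had a limma p under 0.05 there, as did 6 of the 24 other Kupffer cell genes, against 1247 of all genes (5.62%). These genes followed each other across arrays, so they do not count as separate observations. The covariate itself differed between the groups (-0.072, rCPS1 minus rTF). In every other alternative 0 or 1 of the 8 members had an unadjusted limma p under 0.05.

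The variation that the 8 genes showed was shared, and it ran within groups. Set against each gene's own median over the 8 arrays, all 8 genes lay above it in rTF replicate 1, rCPS1 replicate 1 and rCPS1 replicate 3. All 8 lay at or below it in rTF replicate 2, rTF replicate 3 and rCPS1 replicate 2. The mean deviation was 0.65 in rCPS1 replicate 3, 0.35 in rCPS1 replicate 1, 0.23 in rTF replicate 1 and 0.070 in rTF replicate 4. It was -0.12 in rCPS1 replicate 4, -0.24 in rTF replicate 2, -0.28 in rCPS1 replicate 2 and -0.36 in rTF replicate 3. Both groups thus held arrays with high and with low levels of these genes. From the lowest to the highest array Folr2 spanned 1.99-fold, Clec4f 2.21-fold, C6 2.37-fold and Marco 2.48-fold. The residual SD of 7 of the 8 genes lay above the 80th percentile of all genes, and that of Timd4 at the 55.8th. A single principal component of the 8 centred genes held 89.1% of their variance.

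**Figure D3:**
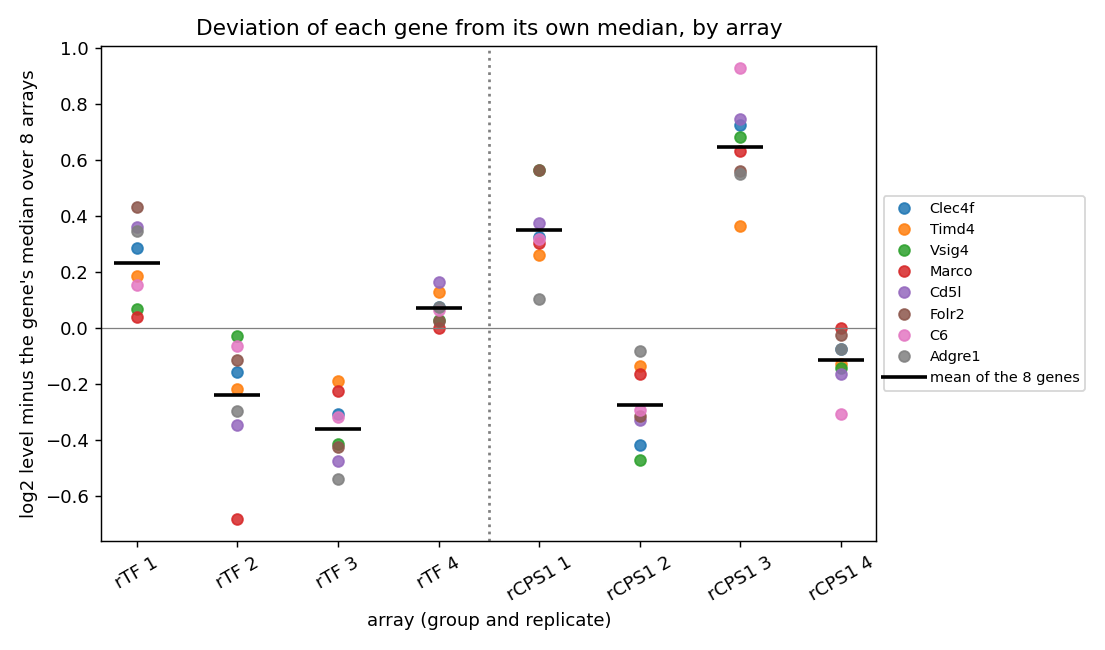
Log2 level of each gene minus its own median over the 8 arrays, by array (4 rTF left of the dotted line, 4 rCPS1 right of it); coloured points are genes and black bars the mean of the 8 genes. The genes move together, from a mean of -0.36 in rTF replicate 3 to 0.65 in rCPS1 replicate 3, and each group holds high and low arrays.

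Taken by pairs, the 28 combinations of the 8 genes had a median Pearson r of 0.89 over the 8 arrays, from 0.72 (Vsig4 with Marco) to 0.98 (Timd4 with Cd5l). Spearman's rho ran from 0.76 to 0.98 with a median of 0.90. By two-sided exact permutation tests adjusted over the 28 pairs, the adjusted p of r lay between 0.00125 and 0.0416. For Timd4 with Cd5l the exact p was 0.000223, rho was 0.98 with an exact p of 0.000397, and without the 2 arrays farthest from the Timd4 median r was 0.97. For Clec4f with Cd5l r was 0.97 (exact permutation p = 0.000273) and rho 0.93 (exact p = 0.00223), and r was 0.99 without the 2 farthest arrays. For Vsig4 with Marco r of 0.72 had an exact permutation p of 0.0416 and rho of 0.79 an exact p of 0.0279, and r was 0.091 without rCPS1 replicates 1 and 3. The 6 arrays left included rTF replicate 2, which lay at -0.68 from the median for Marco and at -0.030 for Vsig4. Which arrays the Vsig4 and Marco relation rests on was not tested further. Over all 28 pairs the median r was 0.86 with the 2 farthest arrays left out, and 19 pairs kept an unadjusted exact p under 0.05 on the 6 arrays left.

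The relations were present with the group difference taken out. On deviations from the group means the median r was 0.88, with a lowest value of 0.69. Within the 4 rCPS1 arrays the median was 0.95 and the lowest 0.76, and within the 4 rTF arrays the median was 0.89 and the lowest 0.19 (Vsig4 with Marco). An r above 0.8 was found for 23 of the 28 pairs (82.1%), against 1.64% of all pairs among the 12315 genes whose mean lay above the median of all array rows. The median r over those pairs was 0.023. In the other marker lists described below, the share of pairs with r above 0.8 ran from 5.45% (general macrophage genes) to 66.7% (B cell genes). It was 56.4% for T and NK cell genes, 43.6% for neutrophil genes and 12.3% for the other Kupffer cell genes. Close relations between genes were thus not particular to the 8 members. Marco followed the mean of the other 7 genes least (r = 0.82), then Adgre1 (0.89), and Cd5l most (0.99). Each of these points shares the array's RNA and its normalisation, so gene pairs are not independent of each other.

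**Figure D4:**
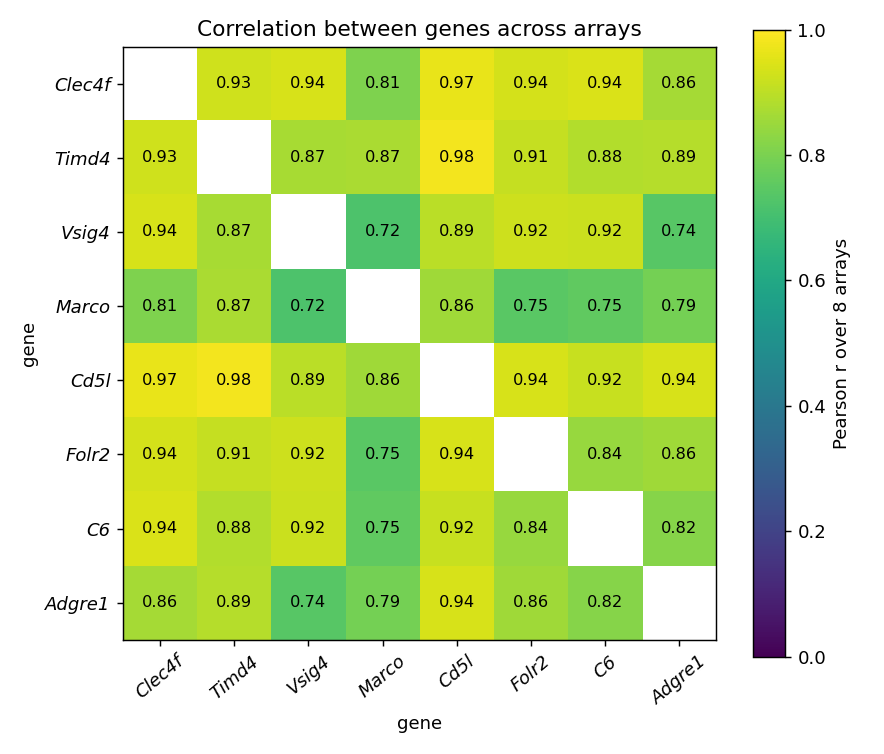
Pearson r over the 8 arrays for each pair of the 8 genes; rows and columns are genes and the colour scale runs from 0 to 1. Values lie between 0.72 (Vsig4 with Marco) and 0.98 (Timd4 with Cd5l).

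Other genes of Kupffer cells followed the members in part. Of 24 further Kupffer cell genes, all measured, 15 were higher and 9 lower with rCPS1, with a median log2 difference of 0.036, 0 with an adjusted p under 0.05 and 0 with an unadjusted p under 0.05. The 4 of smallest p were Il18bp, an inhibitor of interleukin 18 (0.23 ± 0.14, SE), the transcriptional regulator Id3 (-0.32 ± 0.21), C1qc (0.21 ± 0.20) and the chemokine gene Ccl24 (-0.20 ± 0.19), each with a limma adjusted p of 0.980. Over the 8 arrays, 8 of the 24 (33.3%) had r above 0.8 with the mean of the 8 members, against 1.39% of the 12315 genes above the median row. These 8 were Dmpk, the C1q chain genes C1qa, C1qb and C1qc, the properdin gene Cfp, Paqr9, Il18bp and Kcna2. C1q opens the classical complement pathway and properdin stabilises the alternative one, so 4 of the 8 are complement genes. Of these 4, 3 are chains of C1q, the list was written by hand, and its share of complement genes was not compared. A further 7 had r between 0.6 and 0.8, among them the hemoglobin scavenger receptor gene Cd163 (0.75), Nr1h3, which encodes LXR alpha (0.69), and the iron exporter gene Slc40a1 (0.62). Another 6 lay between 0 and 0.6, such as the red-pulp and Kupffer cell factor gene Spic (0.18) and the heme oxygenase gene Hmox1 (0.15). The last 3, the lectin gene Clec1b (-0.41), the prostaglandin dehydrogenase gene Hpgd (-0.64) and Id3 (-0.78), were negative. These r values are descriptions over 8 arrays.

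The genes most like the members in pattern, by Pearson r with their mean over the 8 arrays, were Dmpk (0.99), Axl (0.98), Dhrs1 (0.96), C1qa (0.96) and Acsm5 (0.95), out of 11375 genes ranked. Acsm5 was low, at 3.56 to 4.75 over the arrays, where the median of all array rows was 3.63. Dmpk, a serine/threonine kinase gene known from myotonic dystrophy, read 7.86, 7.46, 7.40 and 7.76 with rTF and 7.88, 7.48, 8.10 and 7.63 with rCPS1. Its 5 highest arrays came in the same order as those of Clec4f. Axl, a receptor tyrosine kinase for the uptake of dying cells, read 9.29, 8.92, 8.85 and 9.22 with rTF and 9.27, 8.93, 9.59 and 8.94 with rCPS1. Their group differences were 0.15 ± 0.17 and 0.11 ± 0.17 (SE, limma adjusted p = 0.980 and 0.981).

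Markers of the cells that could accompany Kupffer cells were read beside the members. Of 11 measured genes of macrophages in general, such as Csf1r, Cd68 and Mertk, 9 were lower and 2 higher with rCPS1. Their median difference was -0.057. The list mean ranged from 9.90 to 10.17 with rTF, and the rCPS1 arrays lay between 9.87 and the rTF mean of 10.02. Infiltrating monocyte genes had lower means with rCPS1 in 12 of 12 measured members (median -0.54), 10 of them with an unadjusted p under 0.05 and 0 with an adjusted one. Their list mean ran from 8.68 to 9.07 with rTF and from 8.05 to 8.27 with rCPS1, without overlap. Examples are the coagulation factor gene F13a1 (-1.17 ± 0.24, SE) and Chil3 (-1.13 ± 0.22), both with a limma adjusted p of 0.862. Neutrophil genes were lower in 11 of 11 (median -1.03), with list means of 6.23 to 7.07 and 5.06 to 5.95. For all genes the share with an unadjusted p under 0.05 and lower was 2.79%. The monocyte and neutrophil lists were written with earlier results of these arrays known, so their direction is no independent evidence, and their part in the members' values was not tested.

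Genes used as markers of other liver cells were read in the same way, though bulk RNA levels alone do not show which cells were present. Sinusoidal endothelial genes such as Stab2, Lyve1, Kdr and Pecam1 had list means of 11.36 to 11.67 with rTF and 11.43 to 11.62 with rCPS1, with 8 of 12 higher and a median difference of 0.017. Hepatocyte genes, which matter for C6, had means of 7.82 to 8.72 and 7.60 to 8.39, with 8 of 11 lower. The array highest for hepatocyte genes, rTF replicate 3, was also the lowest for C6 (6.88). The array lowest for hepatocyte genes, rCPS1 replicate 4, lay close to it for C6 (6.89), as did rCPS1 replicate 2 (6.90). With the hepatocyte list mean as a covariate the C6 difference was 0.20 ± 0.27 (SE). T and NK cell genes had lower means with rCPS1 in 10 of 11 measured (median -0.51), 3 of them with an unadjusted p under 0.05. Their list mean lay at 7.34 in rTF replicate 2, against 6.10 to 6.42 on the other rTF arrays and 5.85 to 6.30 with rCPS1. Genes of large peritoneal macrophages, among them Gata6, had means of 6.05 to 6.65 and 5.60 to 6.89, with 3 of 6 higher. Among the remaining lists, B cell genes were higher in 6 of 6 measured (median 0.10). Stellate cell genes were lower in 8 of 10 (median -0.14), and dendritic cell genes in 6 of 6 (median -0.22). No gene of any of these lists had an adjusted p under 0.05. The hepatocyte, sinusoidal endothelial and T and NK cell list means were each used as a covariate. The median member difference was then 0.21, 0.24 and 0.24 in turn, against 0.22 without a covariate. All 8 members stayed higher with rCPS1 in each of these fits. Beyond these fits, the part of these cells in the members' values was not tested.

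**Figure D5:**
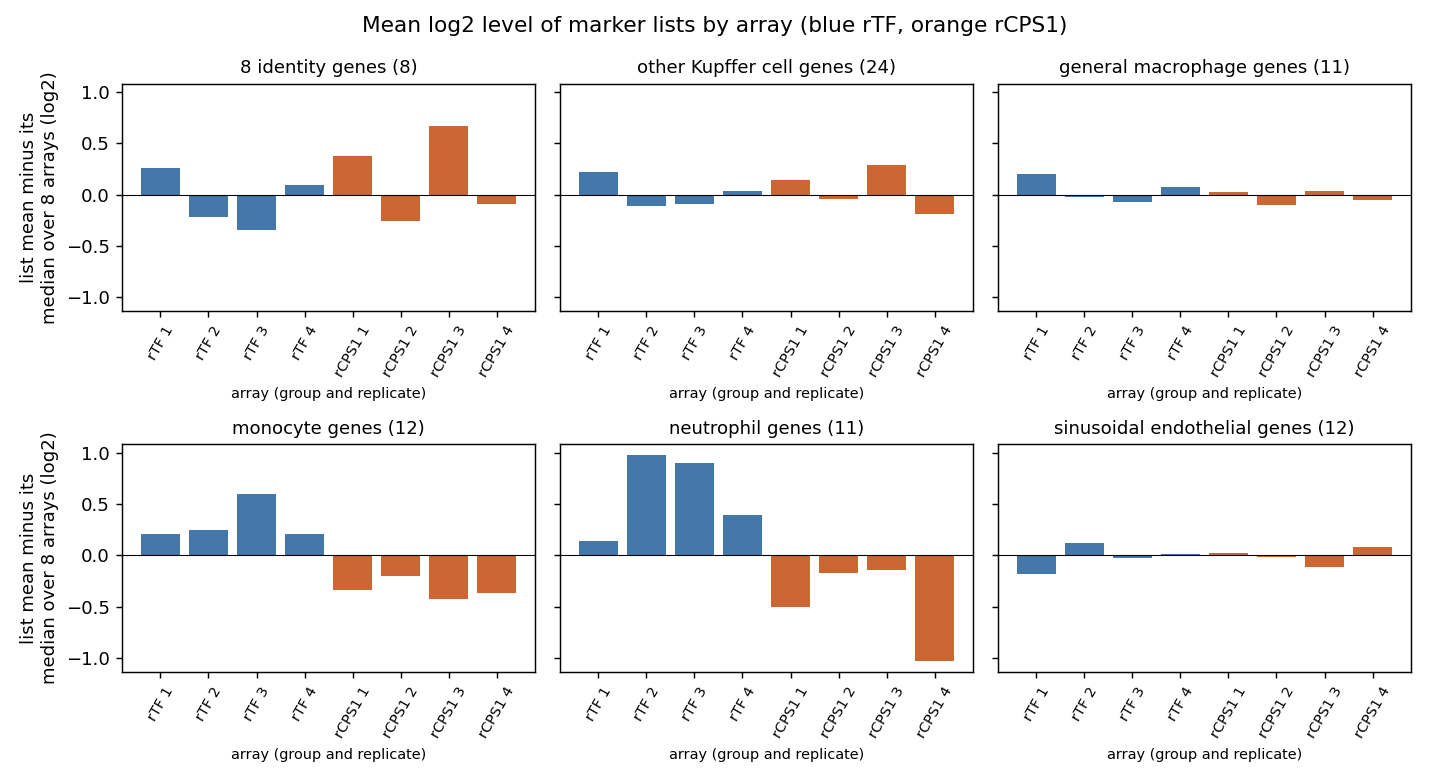
Mean log2 level of 6 marker lists by array, each minus its own median over the 8 arrays; blue bars are rTF and orange bars rCPS1 arrays, and the number of measured genes is in brackets. Kupffer cell lists have high and low arrays in both groups, whereas each monocyte and neutrophil bar of rCPS1 lies below each rTF bar.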

How the data were processed

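The deposited values were log2 expression levels of 41345 array rows on 8 arrays, which the authors made with RMA. The submitters' processing notes give RMA and limma without a version. RMA brings arrays to a common distribution, so a shift shared by most genes would not be seen. The authors' probe filters are not given in the sources used here. Array medians lay between 3.55 and 3.68, and pairs of arrays correlated at 0.967 to 0.983 across rows, with 0 identical pairs. The number of arrays limits the precision. Rows with exactly 1 symbol in the platform annotation (23521) were kept, the row of highest mean for the 1082 genes with several, giving 22180 genes without a filter.

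Samples were grouped by title. The 4 arrays a group were set against each other for every gene in limma 3.58.1 under R 4.3.3 (lmFit, eBayes, two-sided, Benjamini-Hochberg over all genes at 0.05), tested on simulated data. Correlations between members used exact permutation tests in Python 3.11.15. The members and lists were chosen with earlier results of these data known. The lists held 133 genes, some of which are not analysed here. Named were the 8 members, the 4 genes of smallest p in a list, and the 5 genes most like the members; other names were chosen after their values were seen. Alternatives were a filter on low rows, trended and robust variance, array weights, the replicate block, renewed quantile normalization, all rows of a gene, all array rows, list means as covariates and each array left out. The endothelial and T and NK cell covariates were added after seeing the data.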

Additional observations from a re-analysis of the deposited data

Results flagged for a closer look

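Dixon's ratio, the gap of an extreme array over the range of its group of 4, was computed for the values named in the text. None of the 16 groups of member values stood apart. Among all 138 groups of values tested, 6 did, against 6.9 expected by chance at 1 in 20. In rTF replicate 1, Tyrobp, a signalling adaptor gene of myeloid cells, had a log2 level of 9.20, with 8.93 to 8.96 on the other rTF arrays. In the same array Gata6, the factor of large peritoneal macrophages, was at 4.41 (5.71 to 5.91) and the B cell receptor gene Cd79b at 6.76 (7.77 to 7.79). Gata6 was at 5.38 in rCPS1 replicate 2 (5.19 to 5.21 on the other rCPS1 arrays). In rTF replicate 2 the cytotoxic granule gene Nkg7 was at 8.23 (7.26 to 7.32), and in rTF replicate 3 the mean of the monocyte list was at 9.07 (8.68 to 8.72).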

How the results depend on the processing

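Over 19 alternatives no gene of the table passed (0 called in each, limma adjusted p under 0.05), and 150 of 152 member differences kept their sign. The exceptions were Clec4f (-0.030) and C6 (-0.054) without rCPS1 replicate 3. The filter on low rows, trended and robust variance, the replicate block, all rows of a gene and all array rows cannot change a member's estimate. Signs kept under those settings were therefore fixed in advance. With 1 array left out, the Clec4f difference ran from -0.030 to 0.35 and that of C6 from -0.054 to 0.36, the number of members higher with rCPS1 ran from 6 to 8, the median member difference from 0.052 to 0.37, the other Kupffer cell genes higher from 11 to 20 of 24, and the members whose groups did not overlap stayed at 0. Of the 28 pairs, 20 to 28 had an adjusted exact p under 0.05, fewest without rCPS1 replicate 3, with a median r of 0.85 to 0.93. With the replicate block, 0 genes were called. The median member difference stayed at 0.22, which a block balanced over the groups cannot change. The block changed no call at the adjusted threshold, while the unadjusted limma p of Marco was 0.0419 under it against 0.0775 without it. Same-numbered arrays did not deviate together (r = -0.12 to 0.025 over genes), and 0 of the 4 rTF arrays correlated best with its own number. No sign of pairing by number was thus seen, although 4 arrays a group cannot settle that there was none. The macrophage covariate moved 7 of the 8 member differences by over 1.5 times, all upward (0.27 for Timd4 to 0.53 for Cd5l), and the T and NK cell covariate moved C6 (0.35) and Vsig4 (0.43). With 4 arrays a group, differences of the size seen here could not be told from the spread between arrays.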
